A study of Oryza sativa with 12 samples.

Results

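Rice seedlings of the cultivar N22 were compared with seedlings of the cultivar IR64 in plain water, the control condition of a drought experiment. The comparison takes the 3 control libraries of N22 and the 3 control libraries of IR64, 6 of the 12 RNA sequencing libraries of the series, chosen by their sample titles. The seedlings were 21 days old and stood for 6 h in reverse osmosis water. In the other 6 libraries, 3 of each cultivar, seedlings of the same age stood for 6 h in 20% polyethylene glycol (PEG) 6000, a polymer that lowers the water potential at the roots. The submitters describe N22 as tolerant of drought and IR64 as sensitive. No transgene, mutation or other agent is named for any group, the organ is not given, and nothing says whether a library came from 1 plant or a pool.

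As background, N22 belongs to the aus group of rice and IR64 to the indica group, and each differs in sequence from the japonica cultivar Nipponbare, the source of the reference genome named for these libraries. IR64 carries a semidwarf allele of the gibberellin gene SD1, a shortened form of the root angle gene DRO1, and no copy of the trehalose gene TPP7. Genes that vary most in presence and level between rice cultivars are known to include disease resistance genes, which often stand in clusters of related copies. Reads of both cultivars were aligned to 1 reference, and the part that sequence differences from it have in any value below was not tested.

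Levels were deposited as FPKM, in which the fragments of a transcript are divided by its length and by the library size, and the tables hold 1 row per assembled gene. Each row has an assembly identifier and, for most, a locus name of the rice annotation whose first digits give the chromosome. The tables hold no coordinates. Over the 6 control libraries 37397 rows were listed, between 30898 and 31952 in each, and FPKM summed to between 684525 and 708442 per library. The depth in reads is unknown. Pearson's r of log2(FPKM + 1) was 0.991 to 0.993 among the N22 libraries, 0.991 to 0.993 among the IR64 libraries and 0.936 to 0.944 between the cultivars. The labels do not say that replicates were separate plants, so each p-value rests on the spread among libraries of 1 cultivar, which may be technical in part.

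Rows were kept in sets by the files that list them. In all 6 control files 26611 rows were listed. A further 1249 were listed in all 3 N22 files and no IR64 file, and 1149 in all 3 IR64 files and no N22 file. The other 8388 were listed in some files of either cultivar. A row was tested with limma if at least 2 of the 3 libraries of either cultivar reached 1 FPKM, which 23559 rows did. A row was called where its Benjamini-Hochberg adjusted p was at most 0.05 and its difference, N22 minus IR64 on the log2(FPKM + 1) scale, at least 1 in size. That scale understates the difference of rows at low FPKM.

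Among the rows listed in all 6 files, the cultivars differed at a small share, about equally in both directions. Of 22270 such rows tested, 645 were higher in N22 (2.9%) and 649 were lower in N22 (2.91%), together 5.81%. At all of these 1294 rows the 3 N22 values stood apart from the 3 IR64 values, as they did at 38.4% of all rows in this set. For called rows this largely follows from the call, which uses the same values, so it is no further support. The median difference was -0.01, and 83.4% of the rows differed by less than 0.5 in size. The middle of the called rows lay at 1.45 for those higher in N22 and at -1.52 for those lower in N22. With the rows of the other sets counted in, an absent row being taken as 0, 1264 rows were higher in N22 (5.37%) and 1218 lower in N22 (5.17%), together 10.5% of those tested.

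**Figure D1:**
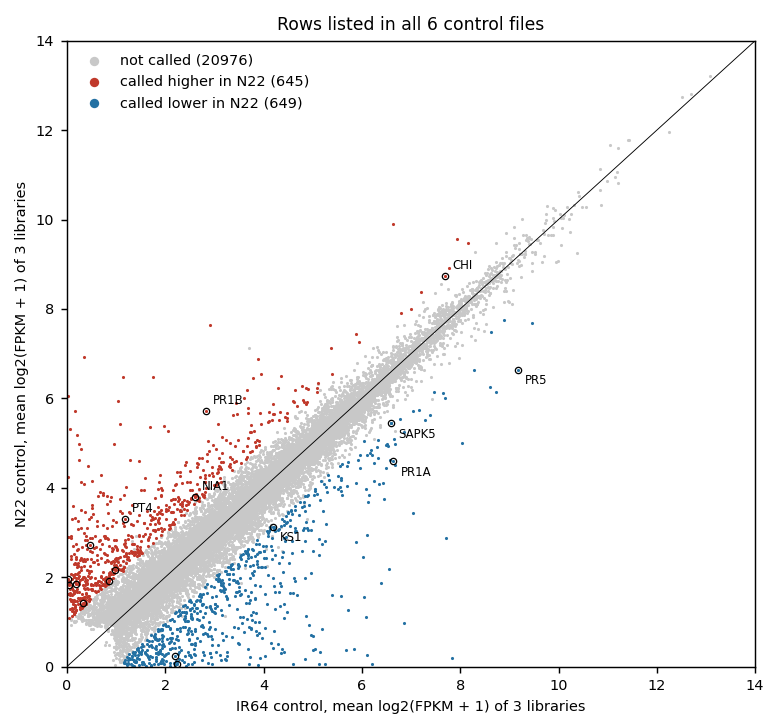
Mean log2(FPKM + 1) of the 3 N22 control libraries (vertical axis) against that of the 3 IR64 control libraries (horizontal axis) for the rows listed in all 6 files and tested. Red points were called higher in N22 (645), blue points lower in N22 (649) and grey points were not called; black circles mark called genes of the lists, the more abundant ones by name.

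The share called was 8.03% of 6017 rows whose higher cultivar averaged 1 to 5 FPKM, 5.93% of 8699 rows at 5 to 20 FPKM, 4.09% of 6252 rows at 20 to 100 FPKM and 3.17% of 1231 rows at 100 FPKM or more. The 71 rows under 1 FPKM could not be called, because their difference on the log2(FPKM + 1) scale stays under 1 in size. In the class of 100 FPKM or more 14 rows were higher in N22 and 25 lower in N22. Rows with 1 locus name were called at 5.20%, rows that join several loci at 11.1%, and rows with no locus name at 13.0%.

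Genes were read by function from 27 lists of rice genes, 347 of which were found, on 342 rows. Of the 311 rows tested, 13 were higher in N22 and 8 lower in N22, which is 6.75%, set beside 10.5% of all rows tested. Of the 307 list rows listed in all 6 files, 11 were higher in N22 and 6 lower in N22, which is 5.54% and close to the 5.81% of all such rows. The median difference over the list rows was 0.00, against -0.01 over all rows. No gene was called in 14 of the lists. By number, the lists of defence (5 of 17) and of flavonoid synthesis (3 of 11) held the most called genes.

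**Figure D2:**
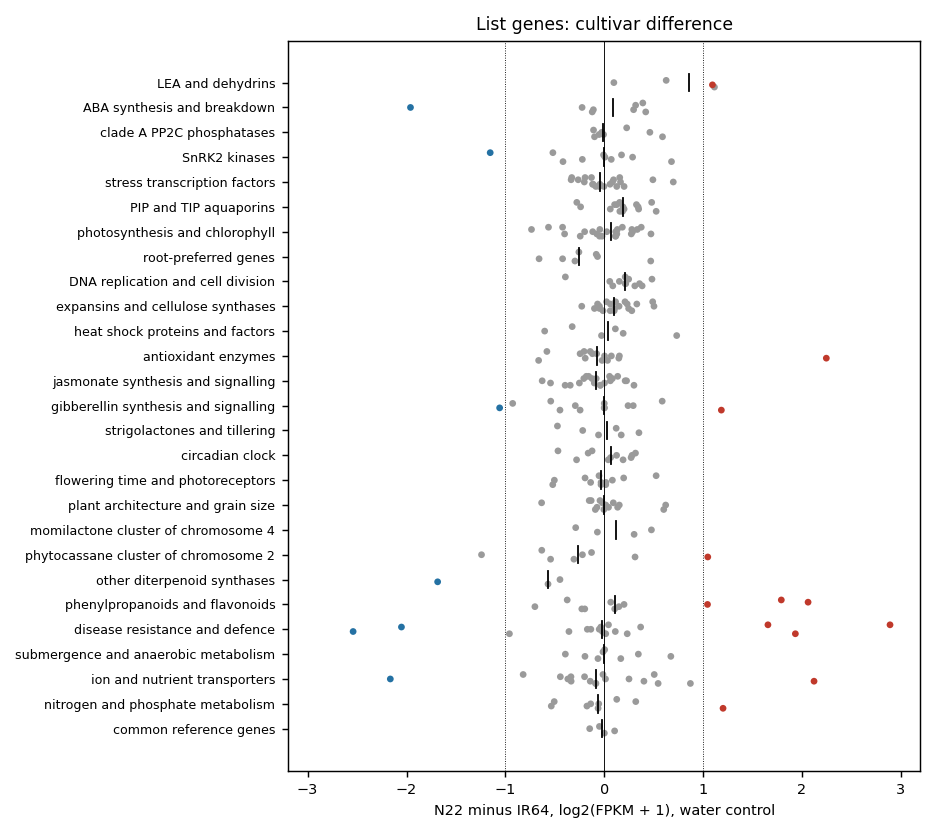
N22 minus IR64 difference of log2(FPKM + 1) in water for every tested list gene listed in files of both cultivars, 1 point per row, by list; dotted lines mark the size threshold of 1 either way. Red points were called higher in N22 and blue points lower in N22, vertical bars give the median of the rows plotted. Most points lie within the dotted lines.

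Of 17 defence genes tested, 3 were higher in N22, 2 were lower in N22 and 12 were not called, with a median difference of -0.02. The 3 N22 values lay above all IR64 values at 4 of them and below at 3, set beside 38.4% of all rows listed in all 6 files with no overlap either way. PR1B (LOC_Os01g28450), a secreted pathogenesis-related protein made on infection, had 41.7, 45.4 and 73.2 FPKM in N22, against 5.20, 7.78 and 5.59 FPKM in IR64. Every N22 value exceeded every IR64 value several fold, and the difference was 2.89 (SE 0.24, adjusted p = 0.00015).

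Its relative PR1A (LOC_Os07g03710) lay the other way. It had 21.4, 19.8 and 29.0 FPKM in N22, against 111, 130 and 67.0 FPKM in IR64 (difference -2.05, SE 0.26, adjusted p = 0.0015). PR5, a thaumatin-like protein of the same response, was counted on a row that joins 4 loci, LOC_Os12g43430 among them. That row held 73.9, 104 and 123 FPKM in N22 and 563, 555 and 613 FPKM in IR64 (difference -2.54, SE 0.18). The cultivars did not overlap at either gene, and values of such gene families are uncertain where near-identical copies share reads. PBZ1, another induced defence gene, had a mean of 300 ± 163 FPKM in N22 and 542 ± 122 FPKM in IR64 (SD, n = 3 each), which overlapped and did not pass (difference -0.96, adjusted p = 0.11).

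Both resistance genes that were called were higher in N22 and close to 0 in IR64, so they passed the filter through N22 alone. RGA5 (LOC_Os11g11810) encodes an intracellular receptor that binds effectors of the blast fungus. It had 2.60, 2.44 and 2.68 FPKM in N22, against 0.139, 0.127 and 0.132 FPKM in IR64 (difference 1.66, SE 0.08, adjusted p = 8.7e-06). RGA4 (LOC_Os11g11790), the receptor that signals together with RGA5 and stands beside it on chromosome 11, averaged 5.64 ± 0.281 FPKM in N22 and 5.79 ± 0.168 FPKM in IR64, a difference of -0.03 (SE 0.07). RGA4 thus did not pass, and its ranges overlapped.

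XA1 (LOC_Os04g53120), a receptor for bacterial blight, had 3.47, 2.56 and 2.62 FPKM in N22, against 0.0113, 0.00619 and 0.0117 FPKM in IR64 (difference 1.93, SE 0.11). Receptors of bacterial and fungal surface molecules were not called. FLS2, which binds flagellin, differed by 0.04, CERK1, the shared chitin co-receptor, by 0.02 and CEBIP, which binds chitin, by 0.11, none past the test (adjusted p = 0.87, 0.93 and 0.68).

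DFR and ANS, 2 genes of late steps of flavonoid synthesis, were higher in N22. Of 11 rows tested in the list of phenylpropanoids and flavonoids, 3 were higher in N22 and none lower in N22. Of all rows tested, 5.37% were higher in N22 and 5.17% lower. The 3 N22 values lay above all IR64 values at 4 rows of the list and below at 2, set beside 38.4% of all rows listed in all 6 files with no overlap either way. DFR (LOC_Os01g44260) reduces dihydroflavonols on the path to anthocyanins and proanthocyanidins. It had 3.65, 2.96 and 3.68 FPKM in N22, against 0.127 and 0.0449 FPKM in 2 libraries of IR64 and no listing in the first (difference 2.06, SE 0.10, adjusted p = 1.3e-05). ANS (LOC_Os01g27490), the synthase of the next step, had 2.23, 2.41 and 3.11 FPKM in N22, against 0.0298, 0.0236 and 0.0316 FPKM in IR64 (difference 1.79, SE 0.11). Both were low in N22 and nearly absent in IR64.

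CHI (LOC_Os03g60509), the chalcone isomerase of an early step, was abundant in both cultivars. It had 411, 473 and 398 FPKM in N22, against 176, 265 and 187 FPKM in IR64 (difference 1.05, SE 0.17, adjusted p = 0.0049). All N22 values were higher, but the difference was just past the threshold and lay under 1 without the second N22, the first IR64 or the third IR64 library (0.97, 0.93 and 0.98). CHS1, the chalcone synthase that feeds CHI, averaged 220 FPKM in N22 and 196 FPKM in IR64 and did not pass (difference 0.15, adjusted p = 0.62). The regulator C1 had a difference of -0.23 and did not pass either (adjusted p = 0.51). RC, the regulator of red grain colour, was listed in N22 alone, at 0.104, 0.0423 and 0.0431 FPKM, too low to be tested.

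Early phenylpropanoid genes showed smaller differences. PAL1, PAL2 and PAL3, which make cinnamate from phenylalanine, share a row of 4 loci that differed by -0.20 (adjusted p = 0.45). PAL4 passed the adjusted p but not the size, with 44.5 ± 4.6 FPKM in N22 and 74.0 ± 16 FPKM in IR64 (SD, n = 3 each; difference -0.70, adjusted p = 0.025).

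Among 18 ion and nutrient transporters, 1 was higher in N22 and 1 lower in N22. HKT2;1 (LOC_Os06g48810) takes up sodium into roots short of potassium. Its values were 0.0642, 0.0552 and 0.0243 FPKM in N22, against 3.89, 4.02 and 3.22 FPKM in IR64 (difference -2.16, SE 0.10, adjusted p = 7.4e-06). The gene was close to 0 in all N22 libraries.

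PT4 (LOC_Os04g10750), a phosphate transporter of the plasma membrane, had 7.73, 9.29 and 9.65 FPKM in N22, against 1.25, 1.57 and 0.994 FPKM in IR64 (difference 2.12, SE 0.13). PT8, another phosphate transporter, lay slightly lower in N22, at 121 ± 8.3 FPKM against 157 ± 10 FPKM in IR64, a difference of -0.37 that passed the adjusted p (0.024) and not the size. Other members that passed the adjusted p alone were HKT1;5, which draws sodium out of the xylem, with 2.25, 1.59 and 2.67 FPKM in N22 and 0.490, 0.774 and 0.908 FPKM in IR64 (difference 0.87, adjusted p = 0.0077), and HMA3. HMA3 (LOC_Os07g12900), a pump that stores cadmium in root vacuoles, had 2.83, 3.60 and 3.39 FPKM in N22 and 1.98, 2.22 and 1.59 FPKM in IR64 (difference 0.55, SE 0.12, adjusted p = 0.016). No N22 value of either gene fell within the IR64 range, and without the second or the third N22 library HMA3 lost the adjusted p (0.055 and 0.059). The sodium exporters SOS1 and NHX1 and the potassium channel AKT1 did not pass (adjusted p = 0.17, 0.22 and 0.68).

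In nitrogen and phosphate metabolism 1 of 9 genes was called. NIA1 (LOC_Os08g36480), a nitrate reductase, had 12.5, 18.0 and 9.53 FPKM in N22, against 6.55, 5.42 and 3.55 FPKM in IR64 (difference 1.20, SE 0.26, adjusted p = 0.017). The ranges did not overlap, but the call was lost without the first N22 library (adjusted p = 0.052) and, by size, without the second N22 or the third IR64 library (0.98 and 0.998).

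Of 13 gibberellin genes tested, 1 was higher in N22 and 1 lower in N22, with a median difference of 0.00. SD1 (LOC_Os01g66100) encodes the gibberellin 20-oxidase whose loss gives semidwarf rice. It had 4.54, 3.06 and 2.92 FPKM in N22, against 1.44, 1.25 and 0.363 FPKM in IR64 (difference 1.19, SE 0.25, adjusted p = 0.015). N22 was higher throughout, and without the third IR64 library, the lowest, the difference was 0.93 and no longer called.

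KS1 (LOC_Os04g52230), the kaurene synthase of an early step, was lower in N22. It had 7.52, 8.52 and 7.25 FPKM in N22, against 16.5, 18.5 and 16.8 FPKM in IR64 (difference -1.06, SE 0.09, adjusted p = 0.00014). GA2OX3, which inactivates gibberellins, was close to the size threshold, with 6.34, 7.27 and 5.16 FPKM in N22 and 11.5, 13.0 and 13.6 FPKM in IR64 (difference -0.93, adjusted p = 0.002). The cultivars did not overlap at either gene. KAO, an oxidase of the middle steps, and GA3OX2, which makes active gibberellins, passed the adjusted p with differences of 0.59 and -0.54.

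Abscisic acid (ABA), the hormone of water shortage, is made through cleavage enzymes of the NCED family and acts through SnRK2 kinases. Among 8 genes of ABA synthesis and breakdown, NCED2 (LOC_Os12g24800) was lower in N22, with 0.345, 0.0862 and 0.131 FPKM against 4.39, 3.53 and 2.97 FPKM in IR64 (difference -1.96, SE 0.14, adjusted p = 9e-05). The other 7 were not called. Of the 10 SnRK2 kinases, SAPK5 (LOC_Os04g59450) was lower in N22, with 46.8, 41.6 and 39.7 FPKM against 105, 92.8 and 90.7 FPKM in IR64 (difference -1.15, SE 0.09, adjusted p = 0.00015). Groups lay far apart at both genes. SAPK1 was the largest difference the other way among the kinases, at 15.4 ± 0.33 FPKM in N22 and 9.23 ± 0.038 FPKM in IR64 (difference 0.68, adjusted p = 0.00021), short of the size threshold.

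No clade A PP2C phosphatase, the brakes of ABA signalling, was called among 8 tested. Their most abundant row, which holds PP2C09 and joins 3 loci, had 41.5, 61.7 and 52.1 FPKM in N22 and 30.0, 39.2 and 42.5 FPKM in IR64 (difference 0.46, adjusted p = 0.12), with overlapping ranges. The 21 rows of stress transcription factors gave no call either. WRKY45, the most abundant of them by the mean of the 6 libraries and a regulator of disease resistance, averaged 167 ± 41.8 FPKM in N22 and 190 ± 40.1 FPKM in IR64.

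Late embryogenesis abundant proteins and dehydrins, which protect drying cells, were low in water in both cultivars. Of 4 tested, RAB16B (LOC_Os11g26780) was higher in N22, with 2.41, 2.19 and 0.801 FPKM against 0.306, 0.305 and 0.177 FPKM in IR64 (difference 1.1, SE 0.24, adjusted p = 0.018). That call was lost without the third IR64 library (adjusted p = 0.065) and with all 12 libraries in the fit (adjusted p = 0.30). With N22 library 1 or 2 left out the gene lay under the filter and was not tested. RAB16A, its neighbour, had 4.26, 7.55 and 1.43 FPKM in N22 and 1.86, 1.80 and 0.339 FPKM in IR64. Those ranges overlapped, and the difference of 1.12 did not pass (adjusted p = 0.17). RAB16C and RAB16D, also on chromosome 11, were too low to be tested. RAB16C lay the other way, with 0.456, 0.597 and 0.521 FPKM in N22 and 0.957, 1.28 and 0.754 FPKM in IR64, without overlap. At RAB16D the ranges overlapped.

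Of 15 antioxidant enzymes 1 was called. APX5 (LOC_Os12g07830), an ascorbate peroxidase that removes hydrogen peroxide, had 6.18, 4.92 and 5.69 FPKM in N22, against 0.492, 0.389 and 0.281 FPKM in IR64 (difference 2.25, SE 0.11, adjusted p = 1.1e-05). Each N22 value was several times every IR64 value. SODA1, a manganese superoxide dismutase, was lower in N22 without reaching the size threshold, at 76.6 ± 6.1 FPKM against 122 ± 10 FPKM in IR64 (difference -0.66, adjusted p = 0.0025).

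Diterpenoid phytoalexins are antifungal compounds of rice made from gene clusters. In the phytocassane cluster of chromosome 2, 1 of 8 genes was called. KSL5 (LOC_Os02g36220), a diterpene synthase, had 2.95, 3.11 and 2.29 FPKM in N22, against 0.681, 0.710 and 1.1 FPKM in IR64 (difference 1.05, SE 0.13, adjusted p = 0.0014). The cultivars did not overlap, yet the difference lay under 1 with quantile scaling (0.998) and without the second N22 or the first IR64 library (both 0.99). KSL7, the abundant synthase of the same cluster, averaged 56.1 FPKM in N22 and 65.7 FPKM in IR64 and did not pass (difference -0.22).

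KSL10 (LOC_Os12g30824), the synthase of another diterpenoid group, was listed in the third N22 library alone among the N22 controls, at 0.0159 FPKM, against 1.16, 1.87 and 4.46 FPKM in IR64 (difference -1.68, SE 0.32, adjusted p = 0.0092). IR64 libraries varied widely in its level, though all lay above N22. No gene of the momilactone cluster of chromosome 4 was called among 4 tested. CYP99A3, its most abundant member by the mean of the 6 libraries and a momilactone oxidase, averaged 9.15 ± 2.23 FPKM in N22 and 9.72 ± 2.99 FPKM in IR64.

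**Figure D3:**
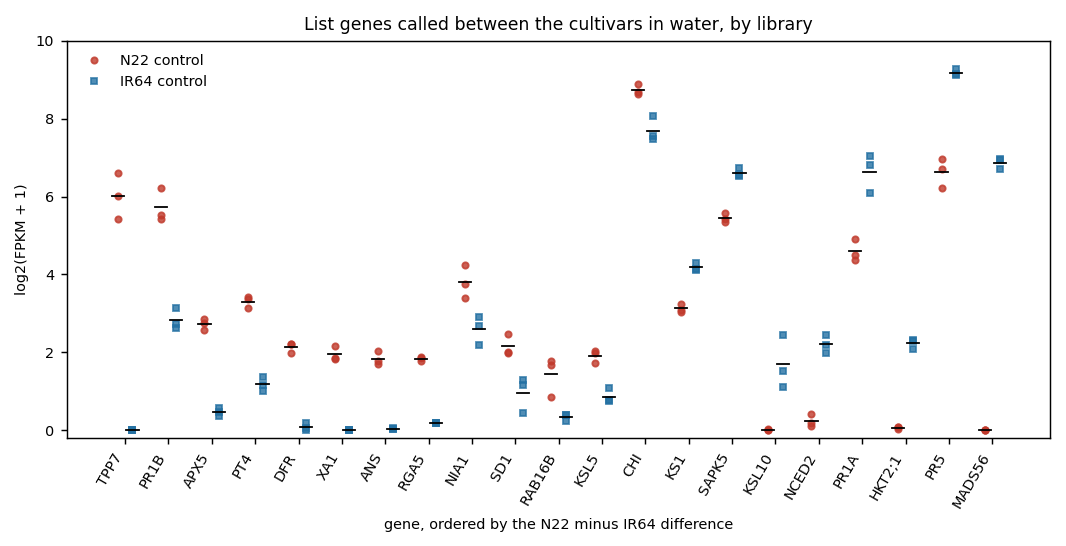
Log2(FPKM + 1) in each control library for the 21 called rows of the lists, ordered by their difference; red circles are N22 libraries, blue squares IR64 libraries and black bars the means of 3. At no gene do the red and the blue points overlap, which largely follows from the call. TPP7 in IR64 and MADS56 in N22 are not listed and drawn at 0.

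Genes of organs and growth held no call. All 24 genes of photosynthesis and chlorophyll were tested and none was called, with summed levels of 17910 to 21182 FPKM in N22 and 16473 to 19480 FPKM in IR64. RBCS3, a Rubisco small subunit and the most abundant gene of the list, averaged 9504 ± 728 FPKM in N22 and 8688 ± 484 FPKM in IR64. Of 12 root-preferred genes 7 were tested and none was called, and their sums were 695 to 836 FPKM in N22 and 777 to 849 FPKM in IR64. LSI1 (LOC_Os02g51110), the silicon channel of roots, had 259, 217 and 207 FPKM in N22 and 321, 276 and 316 FPKM in IR64. It passed the adjusted p (0.042) with a difference of -0.42, and its ranges did not overlap. Transcripts of both lists were present in both cultivars, and the summed levels of both lists overlapped between the cultivars. The labels name no organ, so the tissues sampled are not known from them. The median difference was 0.07 over the photosynthesis rows tested and -0.26 over the 7 root-preferred rows tested. Whether the share of root or green tissue differed between the cultivars was not tested. In whole tissue, fewer cells of a type and less RNA per cell cannot be told apart.

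DNA replication and cell division showed a median difference of 0.22 over 12 genes with no call. The N22 values lay above all IR64 values at 6 of them and below at 1, and 4 passed the adjusted p. Of all rows listed in all 6 files, 38.4% had no overlap either way and 21.4% passed the adjusted p. PCNA, the sliding clamp of replication, averaged 57.1 ± 3.27 FPKM in N22 and 43.8 ± 6.11 FPKM in IR64 (difference 0.38, adjusted p = 0.044). Expansins and cellulose synthases (20 tested), aquaporins (15), heat shock genes (6), jasmonate genes (21), strigolactone and tillering genes (6) and clock genes (11) held no call. Their most abundant members were EXPB3 (difference -0.23), TIP1;1 (0.53), HSFA1 (-0.03), JAZ7 (0.05), D14 (0.35) and GI (0.27), none past the test (adjusted p from 0.075 to 0.86). The 4 common reference genes held no call, and the row of EEF1A, which joins 3 loci, averaged 1238 ± 109 FPKM in N22 and 1153 ± 141 FPKM in IR64.

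Several genes chosen after their values were seen passed the adjusted p with a difference under 1. SGR, which degrades chlorophyll, stood at 24.2 ± 2.1 FPKM in N22 and 40.9 ± 2.5 FPKM in IR64 (-0.74). HSP101, a heat shock chaperone, stood at 4.55 ± 0.62 FPKM in N22 and 2.33 ± 0.26 FPKM in IR64 (0.73). NAL1, a gene of leaf width, stood at 18.7 ± 1.8 FPKM in N22 and 29.5 ± 0.6 FPKM in IR64 (-0.63). The grain size gene GS5 and the shoot angle gene LAZY1 were higher in N22 by 0.62 and 0.60. Their adjusted p lay between 0.00089 and 0.0035, and n was 3 for each mean. By adjusted p alone, 21.4% of the rows listed in all 6 files passed.

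Other genes known for natural variation among cultivars were read whatever their values. HD1 (LOC_Os06g16370), a day length switch of flowering, had 1.15, 1.58 and 1.41 FPKM in N22 and 2.40, 2.04 and 2.82 FPKM in IR64 (difference -0.52, SE 0.12, adjusted p = 0.020), apart but under the size threshold. Without the first or the third library of either cultivar its adjusted p was between 0.052 and 0.062. SUB1B and SUB1C, ethylene response factors of the submergence tolerance locus, differed by -0.06 and 0.67 and did not pass (adjusted p = 0.76 and 0.15). With the replicate number as a block SUB1C passed the adjusted p (0.0093), still under the size threshold. For the grain width gene GW5 (LOC_Os05g09520) the difference was 0.14 (adjusted p = 0.65), and BZR1, a brassinosteroid factor and the most abundant gene of the architecture list, differed by 0.15 (adjusted p = 0.46). DRO1 (LOC_Os09g26840) was too low to be tested, with 1.03, 0.618 and 0.925 FPKM in N22 and 0.649, 0.359 and 0.478 FPKM in IR64, which overlap.

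TPP7 and MADS56 were absent from all control files of one cultivar. TPP7 (LOC_Os09g20390), a trehalose phosphate phosphatase known for germination under water, had 41.8, 96.1 and 63.4 FPKM in N22 and was listed in no IR64 library, PEG included. In the N22 PEG libraries it had 69.1, 81.2 and 142 FPKM. MADS56 (LOC_Os10g39130), a factor that delays flowering in long days, was listed in no N22 control library and had 103, 121 and 124 FPKM in IR64. Under PEG it stood at 0.0299 FPKM, no listing and 0.0272 FPKM in N22 and at 97.9, 117 and 101 FPKM in IR64. No fold is given against a cultivar in which a row is listed at 0.

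Most rows absent from one cultivar were low in the other. The 1249 rows listed in N22 only had a median level of 0.627 FPKM, and 743 averaged under 1 FPKM. The 1149 rows listed in IR64 only had a median of 0.582 FPKM, and 696 averaged under 1 FPKM. At 1 FPKM or more in all 3 libraries stood 448 rows of N22 only and 393 of IR64 only, and at 10 FPKM or more 106 and 86. Because such rows passed the filter only through the cultivar that lists them, their calls (494 of 501 tested in N22 only and 437 of 442 in IR64 only) say nothing further. Some called list genes with trace values also passed through 1 cultivar alone. Through N22 these were RGA5, XA1, DFR, ANS, APX5, KSL5 and RAB16B, and through IR64 they were HKT2;1, NCED2 and KSL10. So did the rows of largest difference named below. The adjusted p of all these rows adds little to the values shown.

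Absence was mostly repeated in the PEG libraries, which are separate from the control libraries. Of the rows listed in N22 only, 863 (69.1%) were also listed in all 3 N22 PEG libraries and in no IR64 PEG library, and among those at 1 FPKM or more 389 (86.8%). For IR64 only the numbers were 787 (68.5%) and 327 (83.2%). A further check asked whether the gene stood under another row of the same name. Of 946 named rows of N22 only, 34 shared their name with a row listed in IR64, and of 858 named rows of IR64 only, 32 shared it with a row listed in N22. Rows with no locus name made up 303 of the rows in N22 only and 291 of those in IR64 only.

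The most abundant absent rows were listed in no library of the other cultivar, PEG included. LOC_Os01g03310 had 4286, 6635 and 6277 FPKM in N22 and was not listed in IR64. XLOC_057524, an assembled row without a locus name, had 2623, 2033 and 1577 FPKM in N22. The other way, XLOC_010344 had 1035, 1710 and 190 FPKM in IR64 and LOC_Os04g30290 had 577, 999 and 807 FPKM in IR64. The tables at hand pair none of these identifiers with a product.

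Rows listed in all 6 files reached similar extremes. LOC_Os11g14544 had 102, 153 and 113 FPKM in N22, against 0.273, 0.302 and 0.251 FPKM in IR64 (difference 6.58, SE 0.15). LOC_Os04g35010 had 60.2, 69.3 and 65.6 FPKM in N22, against 0.0152, 0.0225 and 0.0154 FPKM in IR64 (difference 6.02, SE 0.08). In the opposite direction XLOC_035543 had 0.0825, 0.120 and 0.241 FPKM in N22, against 188, 286 and 215 FPKM in IR64 (difference -7.63, SE 0.16). LOC_Os11g06570 had 0.0320, 0.0250 and 0.0886 FPKM in N22, against 71.3, 67.8 and 79.6 FPKM in IR64 (difference -6.14, SE 0.08). These rows were close to 0 in one cultivar and well expressed in the other, and their products are likewise not annotated in the tables at hand.

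Called rows were unevenly spread over the 12 chromosomes. Among rows listed in all 6 files, the share called was 9.71% on chromosome 11 and 9.15% on chromosome 12, against 3.56% on chromosome 3, 3.57% on chromosome 5 and 3.88% on chromosome 2. The remaining chromosomes lay between 4.74% and 6.93%. Of the rows at 1 FPKM or more that were absent from one cultivar, chromosome 12 held 32 in N22 only and 39 in IR64 only. On chromosome 1, the chromosome with the most rows tested, they numbered 38 in N22 only and 23 in IR64 only. Chromosome 12 had 1244 rows tested and chromosome 1 had 3210. Rows without a locus identifier were left out of all counts by chromosome. The absent rows by chromosome are thus fewer than the 448 of N22 only and 393 of IR64 only at this level.

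**Figure D4:**
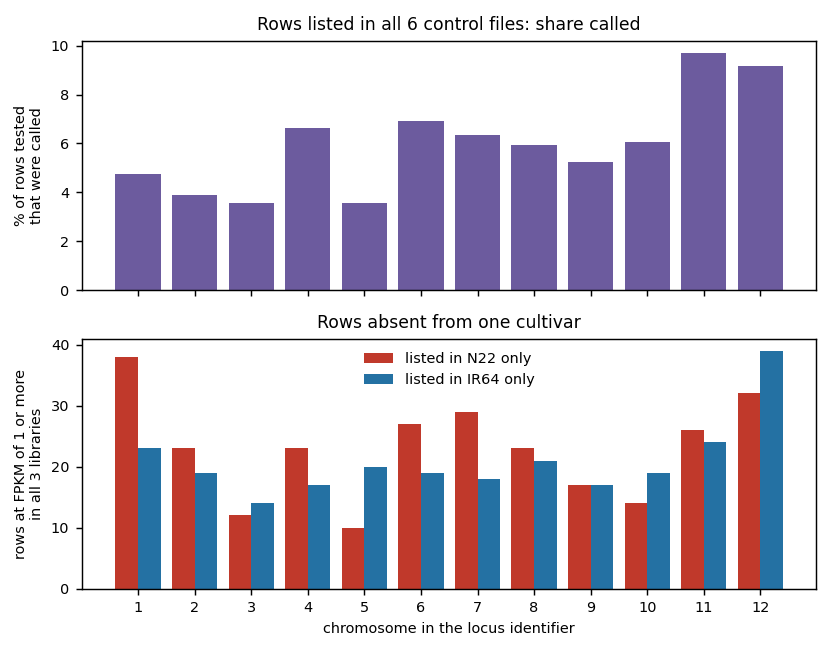
Upper panel, percent of the tested rows listed in all 6 control files that were called, by the chromosome in the locus identifier; lower panel, number of rows at an FPKM of 1 or more in all 3 libraries of one cultivar and absent from the other (red N22 only, blue IR64 only). Chromosomes 11 and 12 have the highest shares called, 9.71% and 9.15%. Rows without a locus identifier are in neither panel.

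The loci tested were put in the order of their identifiers, 21955 in all, of which 8.58% were called, rows absent from one cultivar included. The locus after a called one was called the same way in 389 of 1881 cases (20.7%) and the opposite way in 148 (7.87%). The 8.58% joins both directions. Of all rows tested, 5.37% were called higher in N22 and 5.17% lower, and both the same-way and the opposite-way share lay above these. Of the 952 loci higher in N22, 343 (36.0%) lay in 138 runs of 2 or more neighbours, and of the 931 lower in N22, 320 (34.4%) lay in 136 runs. Absent rows pass the filter only where they are high, so the order was also read, after these counts were seen, over the 21200 loci listed in all 6 files, 5.48% of them called. There the next locus was called the same way in 137 of 1160 cases (11.8%) and the opposite way in 68 (5.86%), and 129 of 575 loci higher in N22 (22.4%) and 125 of 586 lower in N22 (21.3%) lay in runs, the longest of 4 loci. The 5.48% again joins both directions. Of all tested rows listed in all 6 files, 2.9% were called higher in N22 and 2.91% lower, and both neighbour shares lay above these. Neighbours can be copies of one family that share reads, and assembled rows that overlap were not told apart here.

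With absent rows included, the longest runs held 6 loci each. From LOC_Os06g02630 to LOC_Os06g02940 on chromosome 6 all 6 were higher in N22, 3 of them absent from IR64. From LOC_Os06g05410 to LOC_Os06g05450, also on chromosome 6, 6 were lower in N22, 4 of them absent from N22. Further runs of 6 lower in N22 reached from LOC_Os06g38580 to LOC_Os06g38780 and from LOC_Os11g46860 to LOC_Os11g47120, each with 2 loci absent from N22. The longest run made up wholly of absent rows held 5 loci, LOC_Os02g06754 to LOC_Os02g06790 on chromosome 2, all listed in N22 and absent from IR64.

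The same contrast was read in the 6 PEG libraries, none of which enters the control contrast. There 1255 of 23660 rows tested were higher in N22 (5.3%) and 1139 lower in N22 (4.81%), together 10.1%. Of the 1294 rows listed in all 6 control files and called in water, 1238 were tested under PEG, 1232 had the same sign and 907 were called the same way, which is 70.1% of the water list and 37.9% of the PEG list. None was called the opposite way. The shares were close in both directions, with 447 of 645 (69.3%) for rows higher in N22 and 460 of 649 (70.9%) for rows lower in N22. With absent rows counted in, 1923 were called the same way, 77.5% of the 2482 called in water and 80.3% of the 2394 called under PEG. Rows absent from one cultivar pass the filter only through the cultivar that lists them, so these larger shares say nothing further.

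**Figure D5:**
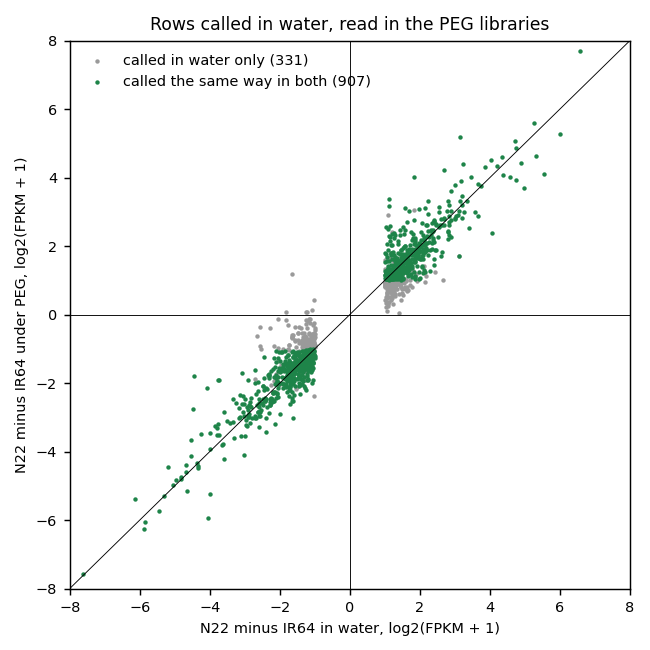
N22 minus IR64 difference of log2(FPKM + 1) under PEG (vertical axis) against the difference in water (horizontal axis) for the 1238 rows called in water, listed in all 6 control files and tested under PEG. Green points (907) were called the same way in both conditions, grey points in water only; the diagonal marks equal differences, and 1232 points have the same sign on both axes.

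Many of the called genes were called the same way under PEG, several with a smaller difference. PR1A had 43.8, 36.6 and 28.4 FPKM in N22 and 89.9, 162 and 101 FPKM in IR64 there, and PR1B had 30.4, 24.9 and 82.0 FPKM in N22 and 1.88, 1.25 and 4.65 FPKM in IR64, differences of -1.65 and 3.62 that were called. Called too were RGA5 (1.59), XA1 (1.41), APX5 (1.74), PT4 (1.32), HKT2;1 (-1.25), NCED2 (-1.1), KS1 (-1.19), SD1 (1.03), CHI (1.17), DFR (1.16) and KSL10 (-1.89). These genes cover defence, transport, hormones and flavonoids.

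Other called genes did not pass under PEG. RAB16B, a gene that PEG raised to 707, 989 and 254 FPKM in N22 and 85.0, 172 and 26.6 FPKM in IR64, had a difference of 2.92 with an adjusted p of 0.051. For the row of PR5 the values were 85.7, 76.3 and 143 FPKM in N22 and 190, 85.2 and 475 FPKM in IR64, which overlap (difference -1.01, adjusted p = 0.38). SAPK5 differed by -0.83, KSL5 by 0.51 and NIA1 by 0.48, and ANS was too low to be tested. Whether the cultivar difference changed with PEG was tested as an interaction in limma over all 12 libraries and 24545 rows. Of the 327 list and named rows none passed, the lowest adjusted p being 0.14 and 23 standing at an unadjusted p under 0.05, so that a gene called in water and not under PEG was not shown to differ between the conditions.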

How the data were processed

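The authors deposited FPKM per gene for each library. The design text of the series names NGSQC Toolkit 2.3.3 for read filtering, RGAP 7.0 as the reference, bowtie 2.3.3.0 for its index, TopHat 2.1.1 for alignment and Cufflinks 2.2.1 for assembly and FPKM, and TopHat and Cufflinks also stand in the submitters' processing notes. The design text names missForest for a value missing from 1 of 3 replicates, yet rows listed in 1 or 2 files of a cultivar occur. The edgeR calls it mentions were not used. FPKM are not counts, so no count model was run, and depth is unknown.

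Rows were matched by assembly identifier, an absent row counted as 0 and values were not scaled further. Rows at an FPKM of at least 1 in 2 of 3 libraries of either cultivar were tested on log2(FPKM + 1), pseudocount 1, with limma 3.58.1 in R 4.3.3 (moderated two-sided test, intensity trend, 6 control libraries, Benjamini-Hochberg over all rows tested). The method was tested on simulated data. Tables and plots were made with Python 3.11.15, pandas 2.3.3 and matplotlib 3.10.9. The thresholds are those of the design text.

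Groups and replicate numbers come from the sample titles. Deviations from the cultivar means correlated between N22 and IR64 libraries of the same number (r = 0.45, 0.44 and 0.16), where different numbers gave -0.46 to 0.08. Deviations from a mean of 3 libraries are tied to each other, so these values are not independent. The numbers may thus pair the libraries. The main fit had no replicate block, since the design text names none, and 1 alternative fit held the number as a block. A gene that did not pass in the main fit may pass the adjusted p with the block, as SUB1C did. Other alternatives were summed rows of one name, a pseudocount of 0.1, no filter, an FPKM minimum of 5, median-of-ratios and quantile scaling, no trend, all 12 libraries, the adjusted p alone and each library left out.

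The comparison, the 27 gene lists and the rules were chosen with earlier results of these data known. Lists hold symbols with locus identifiers from general knowledge, 363 pairs. Of these, 259 symbols were found in a RefSeq table of another rice assembly (ASM3414082v1), with the same chromosome for 256. In all 10 pairs were dropped as wrong or uncertain and 6 genes were in no file. Named are called or absent list genes, the most abundant gene (mean of the 6 libraries) of a list without a call, SD1, TPP7, DRO1, SUB1B, SUB1C, HD1, HMA3 and GW5, the 2 unlisted rows of largest difference each way, the 2 most abundant rows absent from each cultivar, and the longest runs. Genes named beside them as context were chosen after their values were seen. Locus order was taken from the identifiers, with the first row of a locus that has several, and 22 list genes share a row with other loci.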

Additional observations from a re-analysis of the deposited data

How the results depend on the processing

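With an FPKM minimum of 5, 634 rows were called higher in N22 and 630 lower in N22, 380 and 419 of them listed in all 6 files. Of the called rows, 904 were called the same way under PEG, and 281 loci lay in runs; genes under 5 FPKM in both cultivars were not tested there. By adjusted p alone the numbers were 2998, 2981, 2360, 2402, 3007 and 1958. With no filter 413 loci lay in runs, and over rows listed in all 6 files only, a setting chosen after seeing the data, 254, against 663 over all rows tested. An FPKM of at least 1 in all 3 libraries left 448 rows in N22 only and 393 in IR64 only. Listing in all 6 libraries of one cultivar together with absence from all 6 of the other left 863 and 787.

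With each library left out in turn, 1174 to 1304 rows were called higher in N22 and 1144 to 1214 lower in N22. Of the rows listed in all files kept, a wider set than the rows listed in all 6, 604 to 688 were higher and 620 to 662 lower. Of all called rows 1860 to 1892 were called the same way under PEG, and 597 to 639 loci lay in runs. Judged on the files kept alone, 1375 to 1511 rows were listed in N22 only and 1259 to 1401 in IR64 only. The replicate block gave 1285 rows higher and 1245 lower in N22, 660 and 674 of them listed in all 6 files, 2032 called the same way under PEG and 677 loci in runs, and it changed no call of a named row. With 1 library left out the difference of GW5 ranged from -0.038 (without the third IR64 library) to 0.30, and that of SUB1B from -0.13 to 0.047 (without the second N22 library, and 0.0059 without the first IR64 library), none past the test. Of 433 values of 28 named rows under alternatives, 416 kept their direction and side of the threshold, 12 lost the call (RAB16B, SD1, KSL5, CHI and NIA1), 2 gained it when size was not asked for (HD1 and HMA3) and these 3 turned. The cause of these changes was not tested. A setting in which a row fell under the filter gave no value and is not among the 433. With an FPKM minimum of 5 this held for the called genes RAB16B, NCED2, SD1, KSL5, KSL10, DFR, ANS, RGA5, XA1 and HKT2;1. Their calls there were counted neither as kept nor as lost.

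The other scalings moved the median difference of all rows by less than 0.1. With 3 libraries per cultivar and no read depth, rows near an FPKM of 1 rest on an unknown number of fragments, and a failed estimate and an absent transcript look the same. Sequence differences from the reference cannot be told apart from differences in RNA in these tables.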

Other observations

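Some list genes, picked after their values were seen, did not pass in water and had the same order of libraries, or the same extreme library, in both cultivars. The share of all rows with such an order was not counted, so no cultivar effect is read from these genes. Their p-values come from the fit without the replicate block. CYP71Z7, an oxidase gene of the phytocassane cluster, had 4.94, 3.89 and 14.2 FPKM in N22, against 13.2, 12.3 and 29.9 FPKM in IR64 (difference -1.24, SE 0.50, adjusted p = 0.13 in limma). The third library was the highest in both cultivars, and N22 was lower than IR64 at each of the 3 numbers. PBZ1 showed the same order, with 186, 227 and 486 FPKM in N22 and 434, 518 and 675 FPKM in IR64. RAB16A was lowest in the third library of both cultivars, and N22 was higher at each number. The clock gene GI had 225, 127 and 175 FPKM in N22 and 191, 103 and 144 FPKM in IR64, the same order of libraries in both cultivars, with N22 higher at each number (difference 0.27, adjusted p = 0.55).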
